A study of Homo sapiens with 18 samples.

Results

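MYC and 36 genes of ribosome biogenesis and growth metabolism were followed in H1299 cells, 37 of the 60622 genes in the deposited tables. They were chosen by name: MYC itself, proteins that transcribe, modify, cut and assemble ribosomal RNA, and 5 enzymes of polyamine and nucleotide synthesis that are well known MYC targets. NOP56, a partner of fibrillarin, was left out by that rule because its neighbours on the chromosome rise with it on induction. H1299 is a non-small cell lung cancer line that makes no p53 of its own. In the induced samples it carries wild-type p53 under doxycycline control, with FKBP12F36V as the tag that the compounds bind and HA as an epitope. Cells were treated for 24 h with DMSO or with 1 of 2 AceTAG compounds, bifunctional molecules designed to hold an acetyltransferase against the tagged protein. AceTAGp300CBP-1 is called the p300/CBP compound below and AceTAGPCAFGCN5-4 the PCAF/GCN5 compound. There were 6 groups of 3 libraries: induced cells with DMSO, with the p300/CBP compound and with the PCAF/GCN5 compound, and non-induced cells with the same 3 treatments. All groups share the H1299 background and the genotype label wt. The labels give no dose. They name the construct for induced samples only. Whether doxycycline was added to non-induced cells, and whether libraries of a group came from separate cultures, is not stated in them. Every p-value therefore measures the spread between these libraries, which may be technical.

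MYC is a transcription factor that pairs with MAX and binds the E-box, a short palindromic DNA motif. It is known for driving ribosome production at several levels at once, from RNA polymerase I and rRNA processing to nucleotide and polyamine supply. Ribosomes are built in the nucleolus, where small nucleolar ribonucleoproteins (snoRNPs) modify the precursor rRNA and assembly factors shape the small and large subunits. p53 is known to oppose growth and to repress MYC in several cell types.

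Library totals were 19268808 to 29166322 counts in 17 libraries and 9055888 in the third non-induced DMSO library, so that 3 counts, taken as the floor, were 0.103 to 0.331 CPM (counts per 1000000 counts of the library). Mitochondrially encoded transcripts took 0.714% of counts in the third induced DMSO library and 1.32% to 2.45% in the others. As a check of the induction labels, MDM2 went from 68.5 ± 1.09 to 582 ± 20.3 CPM on induction in DMSO and CDKN1A from 89.6 ± 3.37 to 352 ± 25.2 CPM (mean ± SD, n = 3 per group here and below). The cell line markers VIM, KRT8 and KRT18 summed to 2767 to 4300 CPM. VIM fell on induction in DMSO (-0.51 ± 0.08 on the log2 scale, log2 fold change ± SE), KRT18 with the p300/CBP compound in non-induced cells (-0.24 ± 0.06), and KRT18 (-0.74 ± 0.12) and KRT8 (-0.37 ± 0.07) with it in induced cells, each at an adjusted p below 0.05. The part of these shifts in the members' differences was not tested. Of 9 markers of other cell types 8 had any count, their sum was 0.788 to 1.87 CPM, and PTPRC, which marks blood cells, was at 0 in every library. CPM are shares of a library's total: a lower share of these mRNAs and less RNA per cell cannot be told apart, and neither can fewer cells that make them.

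RefSeq promoter windows, 250 bases before to 50 after a gene's start (GRCh38.p14), were matched by symbol for 30 of the 37 members, in 37 windows since some genes have several starts. The canonical E-box CACGTG, which reads the same on both strands, was in 16 of the 37 windows (43.2%), against 2548 of 35116 windows of all genes (7.26%). Counted by gene, 16 of 30 members (53.3%) and 1317 of 10410 other genes tested in non-induced cells with the p300/CBP compound (12.7%) had it. The variant CACGCG, read on both strands, was in 21.6% of member windows and 11.4% of all, and the CCAAT box, a common promoter motif that overlaps neither, in 32.4% and 34.6%. G and C made up a median of 64% of the bases in member windows and 58.7% in all. The stretches around the E-box are shown for 3 members in which it lies upstream of a RefSeq start and in no annotated exon, 5′ to 3′ on the gene's strand, with the E-box in capitals. They belong to 2 enzymes of polyamine synthesis and a small subunit factor, all lower with the p300/CBP compound in non-induced cells.
ODC1, chr2:10448013-10448081, minus strand: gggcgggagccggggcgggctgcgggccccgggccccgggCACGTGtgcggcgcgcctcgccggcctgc
SRM, chr1:11060172-11060257, minus strand: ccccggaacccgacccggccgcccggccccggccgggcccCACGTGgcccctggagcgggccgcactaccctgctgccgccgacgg
UTP20, chr12:101280055-101280104, plus strand: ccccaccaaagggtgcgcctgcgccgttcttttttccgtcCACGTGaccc
The E-box began 29 bases before the start in ODC1, where the stretch lies inside the gene's span because a further start lies upstream, 199 bases before it in SRM and 10 bases before it in UTP20. A match of letters is a description and not a binding site. Among members with a window, 12 of the 23 that were lower with the p300/CBP compound in non-induced cells and 4 of the 7 that were not called had an E-box (52.2% and 57.1%).

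Levels varied widely between members. On the scale of CPM per kilobase of exon, NPM1, the nucleolar chaperone nucleophosmin, stood at 548 in non-induced DMSO cells, NCL (nucleolin) at 290, ODC1 (ornithine decarboxylase, the first step of polyamine synthesis) at 163 and FBL (fibrillarin, which methylates rRNA) at 156. MYC was at 31.8. PPAN, a large subunit factor, was at 5.09 and NOP2, an rRNA methyltransferase, at 0.222, which rests on 5 to 43 counts in each of the 18 libraries. In the deposited annotation 54.4% of the exon bases of NOP2 and 49.2% of those of PPAN also belong to another gene on the same strand, so both counts are uncertain. Exons of 20 of the 37 members overlap those of another gene to some extent. NPM1 has processed copies elsewhere in the genome that could share its reads. All 37 members passed the filter on low counts in each of the 9 comparisons.

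Summed over the 36 members other than MYC, the level was lower in every group that received the p300/CBP compound than in its DMSO group. The sum was 9152, 8876 and 8745 CPM in the non-induced DMSO libraries, 7992, 7864 and 7339 with the p300/CBP compound, and 9260, 8858 and 8800 with the PCAF/GCN5 compound. The p300/CBP libraries lay below all others of the non-induced state, and the PCAF/GCN5 and DMSO libraries overlapped. Induced cells had 8057, 8276 and 9608 CPM with DMSO, 7585, 7425 and 7057 with the p300/CBP compound and 7684, 7534 and 7462 with the PCAF/GCN5 compound. There, both compounds lay below all DMSO libraries, and the third DMSO library, the one low in mitochondrial transcripts, was above its partners by more than the partners differed from any compound library. NPM1 and NCL carry much of this sum. By gene, the lowest of the 6 group means was in induced cells with the p300/CBP compound for 24 members, in induced cells with the PCAF/GCN5 compound for 7 and in non-induced cells with the p300/CBP compound for 6. The highest was in non-induced DMSO cells for 19.

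**Figure D1:**
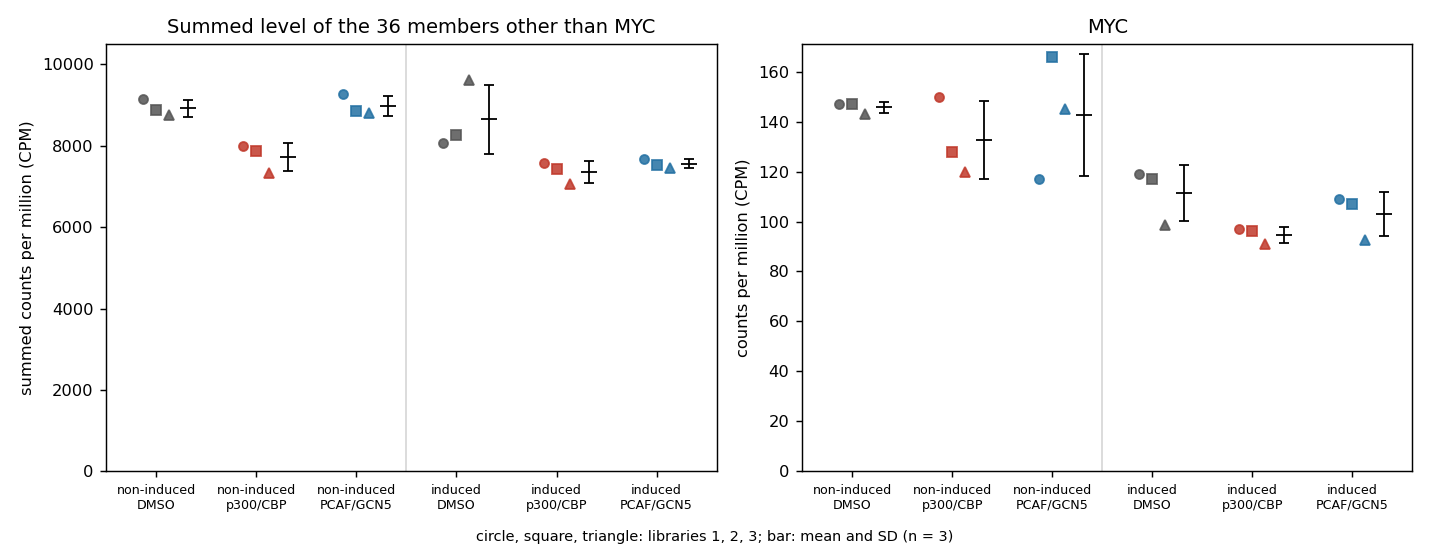
CPM in each of 18 libraries, as the sum over the 36 members other than MYC (left) and for MYC (right). Points are libraries, bars the mean and SD of 3. The summed level is 7339 to 7992 with the p300/CBP compound in non-induced cells and 8745 to 9152 in their DMSO libraries, and MYC is lower in induced than in non-induced DMSO libraries.

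MYC was lower on induction and not called with either compound in the test used here. In the authors' deposited table it was lower with the p300/CBP compound in induced cells (-0.26 on the log2 scale), as given below. Its levels were 147, 147 and 143 CPM in non-induced DMSO libraries and 119, 117 and 98.6 in induced ones, which did not overlap. The difference was -0.41 ± 0.07 on the log2 scale (log2 fold change ± SE from edgeR's quasi-likelihood test, here and below), 0.753-fold, with a Benjamini-Hochberg adjusted p of 0.00703 over all 15055 genes tested. Without the second non-induced DMSO library the adjusted p was 0.0533. The p300/CBP compound gave 150, 128 and 120 CPM in non-induced cells and 97, 96.1 and 91 in induced cells. In the non-induced state 1 of these libraries was above all of DMSO, and in the induced state all 3 were below all of DMSO. The differences were -0.15 ± 0.07 (adjusted p = 0.19) and -0.25 ± 0.08 (adjusted p = 0.108). With the PCAF/GCN5 compound MYC was at 117, 166 and 145 CPM in non-induced cells and at 109, 107 and 92.7 in induced cells, overlapping DMSO in both states. These differences were -0.04 ± 0.09 (95% interval -0.23 to 0.15) and -0.15 ± 0.10 (-0.37 to 0.06). Ordered by mean, MYC was 146 ± 1.84 in non-induced DMSO, 143 ± 24.2 with the PCAF/GCN5 and 133 ± 15.2 with the p300/CBP compound, then 112 ± 11.5 in induced DMSO, 103 ± 8.81 with the PCAF/GCN5 and 94.7 ± 3.26 with the p300/CBP compound. Within each state neighbouring means did not differ beyond their spread, and the p300/CBP compound without induction was not tested against induced DMSO. The MYC gene lies at chr8:127735434-127742951 on the plus strand (GRCh38 coordinates as deposited).

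Induction of p53 in DMSO was followed by lower levels of 9 of the 37 members (24.3%) and higher levels of 0. NOP56, left out because its neighbours rise with it on induction, was itself higher here (1.90 on the log2 scale). The 0 is therefore partly set by the choice of members. All genes tested were called lower in 7.77% of cases and the median log2 difference was -0.15 over the members and 0.01 over all genes. A gene is called here where its adjusted p is below 0.05. Besides MYC, the 9 were 1 snoRNP protein, 4 small subunit and 3 large subunit factors. NOLC1, which carries snoRNPs within the nucleus, was at 282, 263 and 259 CPM in non-induced and 204, 216 and 169 in induced DMSO libraries, without overlap (-0.48 ± 0.08, adjusted p = 0.00624). MRTO4, a factor of large subunit assembly, was at 106, 107 and 109 CPM and 77.9, 83.4 and 86.3, again without overlap (-0.40 ± 0.07, adjusted p = 0.00447). These 2 were called under each of the 12 alternatives run for this comparison. PPAN was lower by the largest factor, from 14.7 ± 0.476 to 10.6 ± 1.36 CPM (-0.50 ± 0.12). The helicase DDX18, of the large subunit, was lower by -0.29 ± 0.05. In the small subunit group HEATR1, a processome subunit, was lower by -0.35 ± 0.07, BYSL by -0.28 ± 0.08, the helicase DDX21 by -0.27 ± 0.07 and UTP20 by -0.27 ± 0.07. None of the 5 enzymes was called: CAD, which starts pyrimidine synthesis, was at -0.32 ± 0.10 (adjusted p = 0.0567), SRM, spermidine synthase, at -0.23 ± 0.09, PPAT, which starts purine synthesis, at -0.21 ± 0.07, ODC1 at -0.05 ± 0.08 and NME1, a nucleoside diphosphate kinase, at 0.20 ± 0.10. All induced libraries were lower without overlap for 14 members, against 16% of all genes tested, and all were higher for 3 (NME1, RRP12 and RRS1), against 21.2%.

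The number of members called on induction rested on single libraries, above all on the third induced DMSO library. Without it, 27 of the 37 were lower and 0 higher, against 17.2% of all genes tested called lower, and the median over the members was -0.18. There were 3 without non-induced DMSO library 1 or 2, 4 without the third and 5 without induced DMSO library 1, where 3.84%, 3.53%, 3.97% and 5.19% of all genes were called lower, in this order of libraries. In the third induced DMSO library 19 members were at their highest of the 3 and 15 at their lowest. Among the members, NPM1 was at 2062, 2068 and 2870 CPM in the 3 induced DMSO libraries, BOP1, a large subunit factor of the PeBoW complex, at 208, 204 and 305, and DKC1, the pseudouridine synthase of H/ACA snoRNPs, at 132, 133 and 170. By contrast, WDR43, a small subunit factor, was at 137, 144 and 112 and NOLC1 was lowest there. The direction of BOP1 turned with it: the difference on induction was 0.01 ± 0.15 with all libraries and -0.22 without it. The share of mitochondrial transcripts is low in the same library, and the part of that in these differences was not tested.

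**Figure D2:**
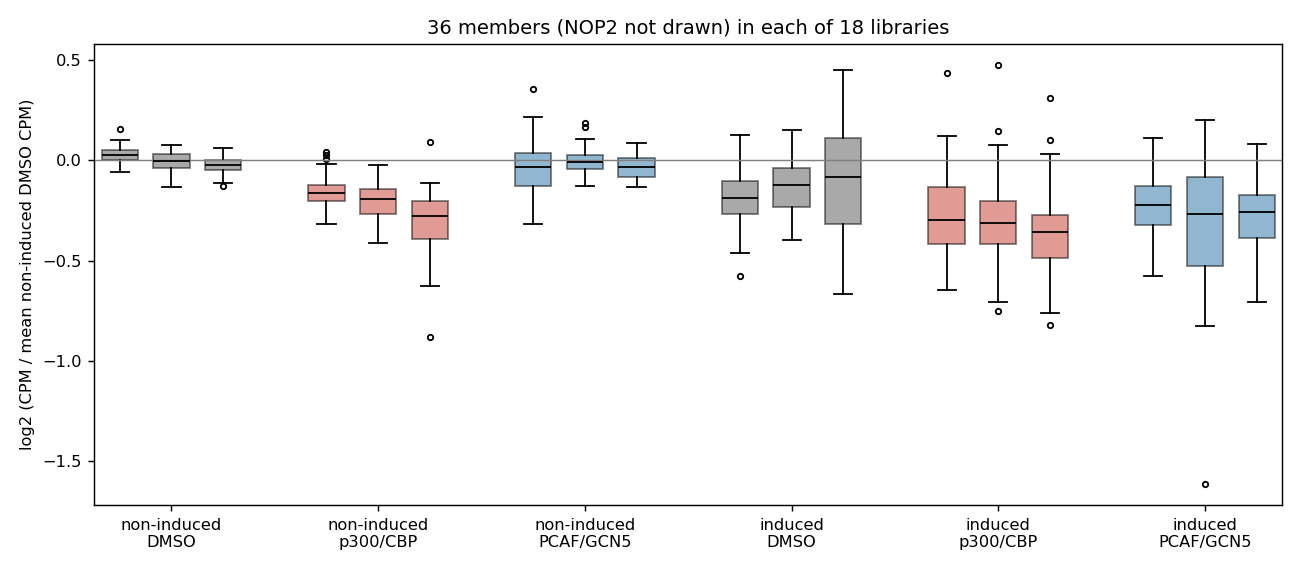
Log2 ratio of each member's CPM to its mean in non-induced DMSO cells, as a box plot over 36 members in each of 18 libraries (line, median; box, quartiles; whiskers, 1.5 times the box; NOP2 is not drawn). Medians are -0.16, -0.19 and -0.28 with the p300/CBP compound in non-induced cells, and the third induced DMSO library has quartiles of -0.32 and 0.11, wider than its partners.

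The p300/CBP compound lowered 27 of the 37 members in cells without induced p53 (73%), and none rose. The share called lower among all 14943 genes tested was 6.46%. The log2 difference was below 0 in 37 of 37 members, from -0.47 to -0.04, with a median of -0.22 against 0.00 over all genes. A member at that median, such as NOLC1, was at 0.858-fold. All compound libraries lay below all DMSO libraries for 30 members, against 13.6% of all genes tested. Calls ran through each role: 3 of 3 scaffold and rRNA transcription genes, 5 of 6 snoRNP proteins, 7 of 10 small subunit factors, 7 of 12 large subunit factors and 5 of 5 enzymes, but not MYC.

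MRTO4 had the smallest p in this comparison, with 106, 107 and 109 CPM in DMSO and 86.2, 88.8 and 78.3 with the compound (-0.36 ± 0.06, adjusted p = 0.000818). PA2G4, a growth-regulating protein bound to pre-ribosomes and ribosomes, went from 272, 298 and 278 to 242, 226 and 211 CPM (-0.34 ± 0.06, adjusted p = 0.00132). DKC1 went from 170, 163 and 158 to 142, 130 and 127 CPM (-0.32 ± 0.06, adjusted p = 0.00132). In these 3 genes no library of one group reached the other group. Together with DDX18 (-0.24 ± 0.05) and TSR1 (-0.28 ± 0.05), a late small subunit factor, they were called under each of the 12 alternatives.

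Of the scaffold group, NCL fell from 1977 ± 47 to 1680 ± 103 CPM (-0.25 ± 0.05), NPM1 from 2097 ± 72.6 to 1889 ± 64.8 (-0.17 ± 0.05) and POLR1B, the second largest subunit of RNA polymerase I, from 70.4 ± 3.51 to 59.7 ± 5.3 (-0.25 ± 0.07). Among box C/D proteins FBL fell by -0.28 ± 0.08 and its partner NOP58 by -0.19 ± 0.05. On the H/ACA side NHP2 fell by -0.18 ± 0.05, and GAR1 was at -0.21 ± 0.10 (adjusted p = 0.208). NOLC1 fell by -0.22 ± 0.05.

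The small subunit factors that fell were RRP9, a U3 snoRNP protein (-0.36 ± 0.08), TSR1, DDX21 (-0.22 ± 0.05), NAT10, an rRNA cytidine acetyltransferase (-0.21 ± 0.06), WDR43 (-0.20 ± 0.05), HEATR1 (-0.19 ± 0.05) and UTP20 (-0.17 ± 0.05). BYSL (-0.20 ± 0.09), RRP12, an export factor (-0.12 ± 0.06), and NOB1, the nuclease that makes the 18S rRNA end (-0.12 ± 0.06), were not called.

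The large subunit factors that fell were PPAN (-0.47 ± 0.13), BOP1 (-0.41 ± 0.08), MRTO4, NOP16 (-0.35 ± 0.06), PA2G4, DDX18 and GNL3, the nucleolar GTPase nucleostemin (-0.24 ± 0.05). BOP1's partners in the PeBoW complex were not called, with PES1 at -0.19 ± 0.07 (adjusted p = 0.0818) and WDR12 at -0.04 ± 0.06 (95% interval -0.16 to 0.08). RRS1, which brings the 5S particle, was at -0.22 ± 0.08 (adjusted p = 0.0905), NIP7 at -0.17 ± 0.06 (adjusted p = 0.0895) and NOP2 at -0.20 ± 0.34.

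All 5 enzymes fell. NME1 went from 77, 78.5 and 75.2 CPM to 65.7, 64 and 62.8 (-0.28 ± 0.06, adjusted p = 0.00342). No NME1 library of the compound reached DMSO. CAD fell by -0.25 ± 0.06, PPAT by -0.24 ± 0.06, SRM by -0.24 ± 0.06 and ODC1 by -0.19 ± 0.05.

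The number of members called in non-induced cells depended on which libraries entered. It was 11 without non-induced DMSO library 1 or 2, 16 without DMSO library 3 or p300/CBP library 2 and 32 without p300/CBP library 1, while the median over the members stayed between -0.28 and -0.19. The share of all genes called lower moved with it, to 3.1% and 2.83% without DMSO library 1 or 2, 3.84% and 3.52% without DMSO library 3 or p300/CBP library 2, and 10% without p300/CBP library 1. Of the p300/CBP libraries, the first had the highest of the 3 values for 24 members and the third the lowest for 27.

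**Figure D3:**
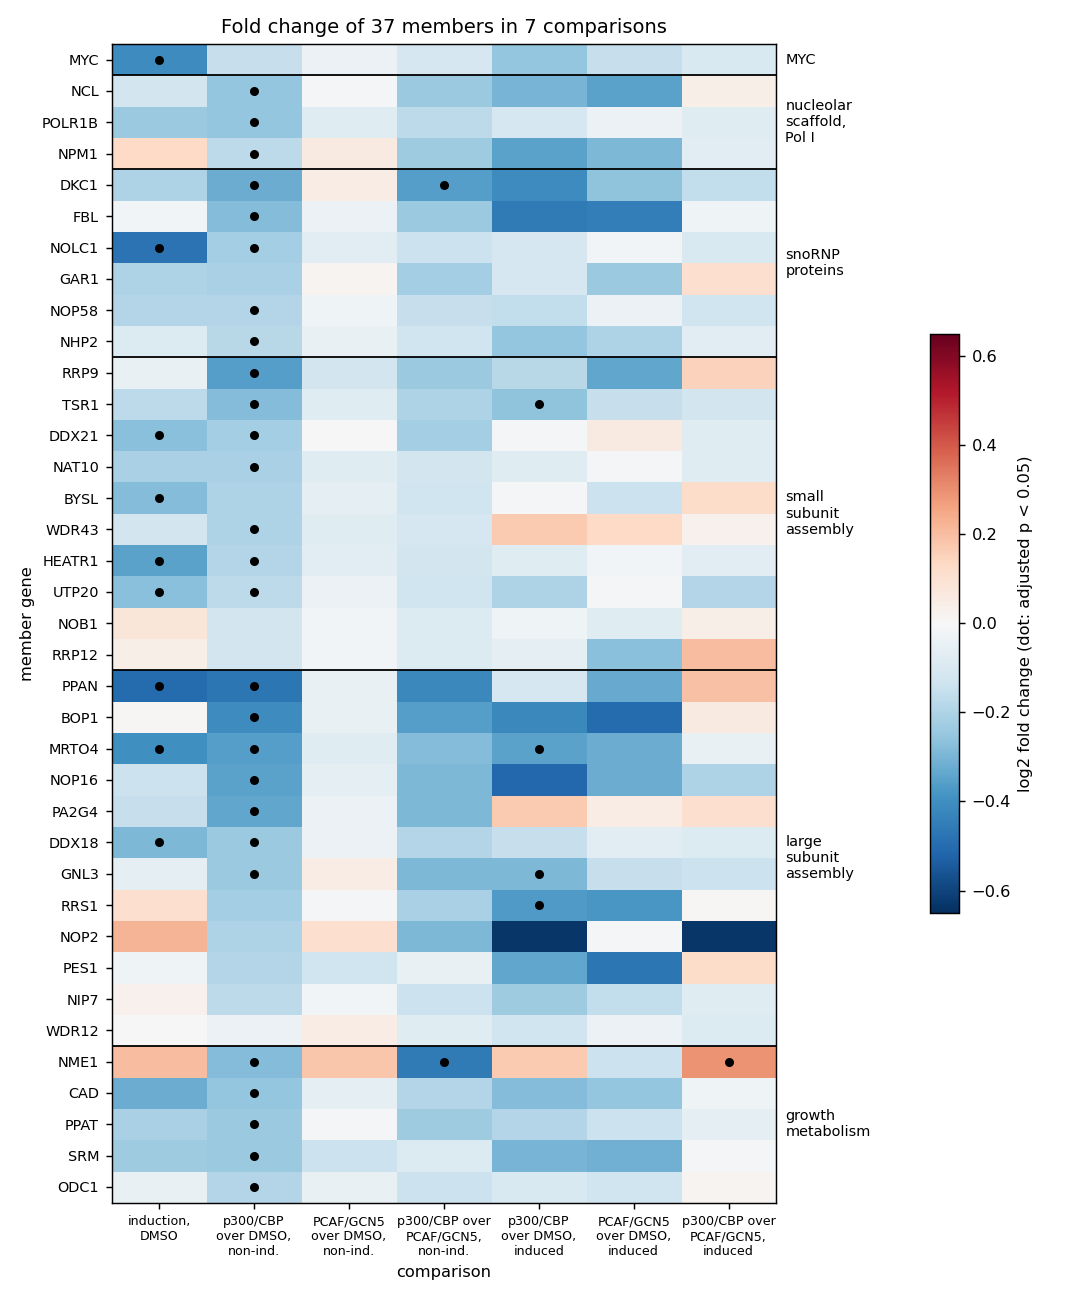
Log2 fold change of the 37 members (rows, grouped by role) in 7 comparisons of 2 groups (columns), in color, with a dot where the adjusted p was below 0.05. The column for the p300/CBP compound in non-induced cells is blue in 37 of 37 rows with 27 dots, and that for the PCAF/GCN5 compound in the same state has 0 dots.

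Other genes of the same pathways were read in the same comparison. The lists were fixed by function with earlier results of these data known. Their counts stand beside 6.46% of all genes called lower and 512 of all 14943 genes called higher. Genes are named by the smallest p among those called. Of 19 other MYC targets 10 fell and 0 rose (median -0.20), among them CDC25A, a cell cycle phosphatase (-0.63 ± 0.09), and HSPD1, a mitochondrial chaperonin (-0.23 ± 0.04). Of 20 further polyamine and nucleotide enzymes 11 fell (median -0.18), among them PFAS of purine synthesis (-0.51 ± 0.07) and CTPS1, which makes CTP (-0.34 ± 0.05). Of 36 further large subunit factors 7 fell (EBNA1BP2 at -0.24 ± 0.04 and BRIX1 at -0.31 ± 0.06), of 38 further small subunit factors 5 (RIOK1 at -0.24 ± 0.06 and NOP14 at -0.19 ± 0.05) and of 14 parts of the RNA polymerase I machinery 3 (POLR1E at -0.35 ± 0.07 and CD3EAP at -0.34 ± 0.08). The 37 ribosomal protein genes, the structural parts of the ribosome, had a median of 0.01, with 1 lower (RPLP1, -0.25 ± 0.07) and 1 higher (RPS27, 0.16 ± 0.05). Of 10 partners in the MYC network MXD4, an antagonist that competes for MAX, rose (0.43 ± 0.05), and MXD3, of the same family, fell (-0.54 ± 0.12). On induction in DMSO 2 of the 10 partners, MXD4 and MXD1, rose (0.64 ± 0.08 and 0.46 ± 0.09), beside 905 of all 15055 genes called higher. MXD3 (-1.04 ± 0.17) and MGA (-0.28 ± 0.07) fell, and 8 of the 19 other MYC targets fell, beside 7.77% of all genes called lower. TFRC, the transferrin receptor, was at -0.80 ± 0.06 and CDC25A at -0.93 ± 0.10 among them. These comparisons share the non-induced DMSO libraries.

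In cells with induced p53 the p300/CBP compound lowered 4 of the 37 members (10.8%), and 0 rose, beside 3.04% of all 15019 genes called lower. The 4 were RRS1, MRTO4, TSR1 and GNL3. RRS1 was at 97, 99.6 and 108 CPM with DMSO and 82.8, 80.1 and 74.8 with the compound (-0.37 ± 0.07, adjusted p = 0.0237). MRTO4 went from 77.9, 83.4 and 86.3 to 68.6, 65.7 and 60.8 CPM (-0.35 ± 0.08, adjusted p = 0.0317). In neither gene did the groups overlap. TSR1 differed by -0.26 ± 0.06 (adjusted p = 0.0385) and GNL3 by -0.29 ± 0.07 (adjusted p = 0.0484). Of these 4, MRTO4, TSR1 and GNL3 were also called in non-induced cells, and 34 of 37 members were below 0 in both states.

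Larger differences with wider spread were not called. NOP16 was at -0.51 ± 0.15, FBL at -0.46 ± 0.12, BOP1 at -0.42 ± 0.15, DKC1 at -0.41 ± 0.11 (adjusted p = 0.0542), NPM1 at -0.35 ± 0.13, PES1 at -0.34 ± 0.11 and NCL at -0.30 ± 0.10. In each of these 7 genes the third induced DMSO library was the highest of its group. The groups did not overlap, all lower, for 21 members, against 16.2% of all genes tested, and all higher for 1 (PA2G4), against 16.9%. Without the third induced DMSO library 22 members were called lower, against 10.9% of all genes. In that setting 2 members, PA2G4 and NME1, were called higher, beside 1575 of all 15266 genes. Without any 1 of the 3 p300/CBP libraries 0 members were called, without induced DMSO library 1 or 2 there were 2, and the median over the members stayed between -0.22 and -0.16. The share of all genes called lower was 0.827%, 0.69% and 0.602% without p300/CBP library 1, 2 or 3, and 1.69% and 2.41% without DMSO library 1 or 2. In the other roles HEATR1 (-0.08 ± 0.07), DDX21 (-0.01 ± 0.07), BYSL (-0.01 ± 0.08) and NAT10 (-0.08 ± 0.07), called lower on induction or in non-induced cells, showed small differences with the compound in induced cells. RRP12 was at -0.06 ± 0.06 and NOB1 at -0.03 ± 0.06.

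PA2G4 was the only member whose response to the p300/CBP compound differed between the states by the interaction test (1 of 37 higher, against 1.09% of all 15618 genes tested). In induced cells it was at 262, 274 and 243 CPM with DMSO and 301, 298 and 281 with the compound, all 3 above DMSO, where in non-induced cells all 3 had been below. The difference in induced cells was 0.17 ± 0.06 (adjusted p = 0.162), and the difference between the states was 0.52 ± 0.10 (adjusted p = 0.011). The interaction was called under each of the 18 alternatives, at 0.45 to 0.57. The gene lies at chr12:56104537-56113910 on the plus strand, and 12.8% of its exon bases are shared with a gene on the same strand and 12.1% with one on the other. AC034102.4, the overlapping gene on the other strand, had a mean of 0.404 CPM and an interaction of 1.15 ± 0.63 (adjusted p = 0.563). ERBB3, RPL41, ESYT1, ZC3H10, MYL6B, MYL6 and SMARCC2 had adjusted p-values of 0.564 to 0.874 in the same test. Their first listed exon coordinate, whatever the strand, lies within 60 kb of that of PA2G4. NME1 was at -0.28 ± 0.06 in non-induced and 0.17 ± 0.10 (adjusted p = 0.351) in induced cells, and its interaction of 0.46 ± 0.12 had an adjusted p of 0.0878. WDR43 had an interaction of 0.37 ± 0.11 (adjusted p = 0.133). Across the 37 members the log2 differences in the 2 states had a Pearson r of 0.17 and a Spearman rho of 0.25, a description over genes that share the same libraries.

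**Figure D4:**
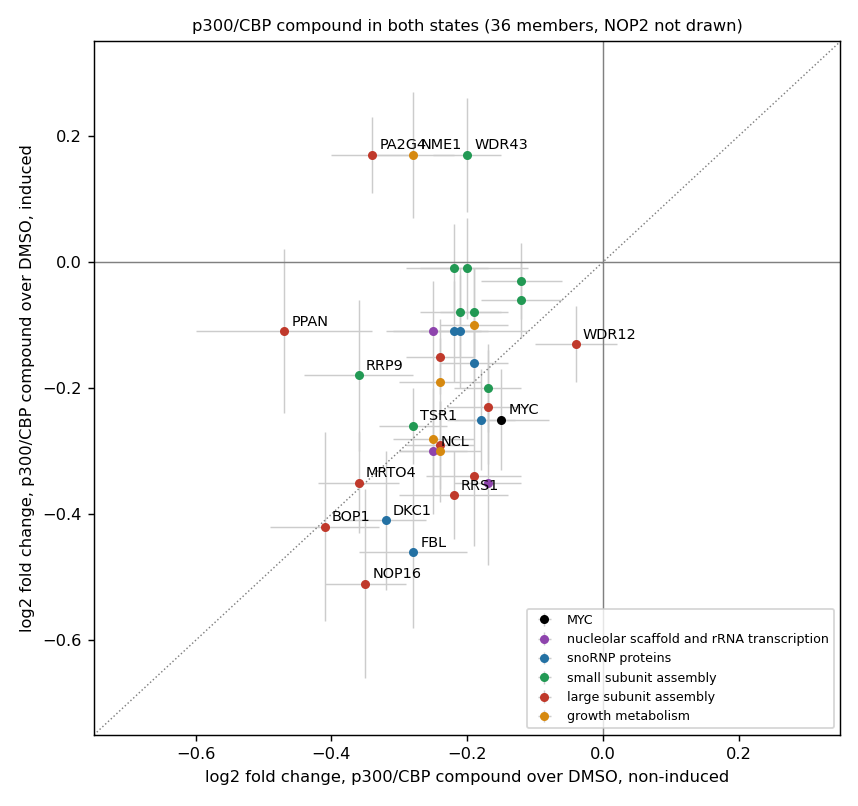
Log2 fold change with the p300/CBP compound in non-induced (x) and induced (y) cells for 36 members (NOP2 is not drawn), colored by role, with bars of 1 SE and a dotted line of equal change. Most points are below 0 on both axes, and PA2G4 lies at -0.34 and 0.17.

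With the PCAF/GCN5 compound no member was called in either state by edgeR on the 2 groups compared. In induced cells 0 of 37 were called, beside 0.345% of all 15078 genes. At an unadjusted p below 0.05 were 13 members, beside 1530 of all 15078 genes. DESeq2 called 1 lower (RRS1), beside 9 of all 17754 genes. Without the filter on low counts edgeR called 5 lower, beside 349 of all 30777 genes. With all 6 groups in 1 fit it called 5 lower, beside 124 of all 16019 genes. The median over the members was -0.15 against -0.01 over all genes, 34 of 37 were below 0, and for 13 members all compound libraries were below DMSO without overlap, against 6.84% of all genes. RRS1 was at 85.3, 75.1 and 78.9 CPM with the compound, all below DMSO (-0.38 ± 0.09, adjusted p = 0.203), and MRTO4 at 72, 66 and 65.7 CPM, also below DMSO (-0.32 ± 0.09, adjusted p = 0.357). NCL was at 1711, 1764 and 2079 CPM with DMSO and 1559, 1362 and 1542 with the compound, without overlap (-0.35 ± 0.11, adjusted p = 0.429). BOP1 (-0.50 ± 0.17), PES1 (-0.47 ± 0.15), FBL (-0.45 ± 0.15) and RRP9 (-0.34 ± 0.12) were not called either. In NCL, BOP1, PES1 and FBL the third induced DMSO library, part of the same control as above, was the highest of its group. Without it the median over the members was -0.11, and 0 members were called, beside 114 of all 15352 genes. In the second PCAF/GCN5 library BOP1 was at 145 CPM beside 199 and 178, PES1 at 92.3 beside 132 and 117, and PPAN at 4.79 beside 11.7 and 9.07. That library had the highest of the 3 values for 21 members and the lowest for 12.

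In non-induced cells 0 of 37 members were called with the compound, beside 0.0199% of all 15100 genes, and 0 by DESeq2. At an unadjusted p below 0.05 were 3 members, beside 959 of all 15100 genes. The median was -0.04 and the members ran from -0.14 to 0.18. NME1 had the smallest p, with 98.3, 86.3 and 79.8 CPM, all above DMSO (0.18 ± 0.07, adjusted p = 0.779). PES1 went from 157, 155 and 149 CPM to 132, 145 and 148, all below DMSO (-0.13 ± 0.06, adjusted p = 0.779). In the test of a difference between the states 0 members were called, beside 0.0696% of all 15813 genes, and 0 by DESeq2. At an unadjusted p below 0.05 were 8 members, beside 1148 of all 15813 genes. The median over the members was -0.14, and -0.08 without the third induced DMSO library. RRS1 came closest, at -0.38 ± 0.10 (adjusted p = 0.453), with 94.1, 93.8 and 88.9 CPM in non-induced DMSO libraries and 90.9, 91.1 and 96.7 with the compound. NCL followed at -0.34 ± 0.12 (adjusted p = 0.658), with 2031, 1950 and 1949 CPM in non-induced DMSO libraries and 2112, 1935 and 1912 with the compound. In both genes the non-induced groups overlapped.

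The compounds were compared directly within each state, 2 pairs in all, as applied, since the labels give no dose. In non-induced cells 2 of 37 members (5.41%) were lower with the p300/CBP than with the PCAF/GCN5 compound, beside 0.932% of all 15131 genes, and 37 of 37 were below 0 (median -0.19). For 23 members the libraries did not overlap, all lower, against 11% of all genes. NME1 was at 65.7, 64 and 62.8 CPM with the p300/CBP compound and 98.3, 86.3 and 79.8 with the PCAF/GCN5 compound (-0.46 ± 0.08, adjusted p = 0.0132). DKC1 was at 142, 130 and 127 CPM against 182, 163 and 168 (-0.36 ± 0.07, adjusted p = 0.0201). Neither gene overlapped between the compounds. Both calls ended without p300/CBP library 2 or 3 or PCAF/GCN5 library 2. In induced cells 1 member was higher with the p300/CBP compound (beside 1.87% of all 14983 genes called higher) and 0 lower. This was NME1, at 104, 107 and 95.3 CPM against 83.1, 88.3 and 81.4 without overlap (0.29 ± 0.06, adjusted p = 0.0108), and the call ended without p300/CBP library 1 or 2. So NME1 was on opposite sides in the 2 states, while its level with DMSO was 76.9 ± 1.67 CPM in non-induced and 90.2 ± 11.4 in induced cells. Of its exon bases 18.6% are shared with the readthrough gene NME1-NME2, which was listed at 0. Unadjusted p was below 0.05 for 21 members in non-induced cells, all lower, beside 2254 of all 15131 genes. In induced cells this held for 8 members, 6 lower and 2 higher, beside 2453 of all 14983 genes. Over all members but NOP2, called ones included, the median half-width of the 95% interval was 0.13 in induced cells. These intervals reached from -0.37 to 0.65. In non-induced cells the median half-width was 0.15, and the intervals reached from -0.72 to 0.13. The bounds -0.72 and 0.65 are both of PPAN, whose count is uncertain. Differences within a member's interval were not excluded.

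**Figure D5:**
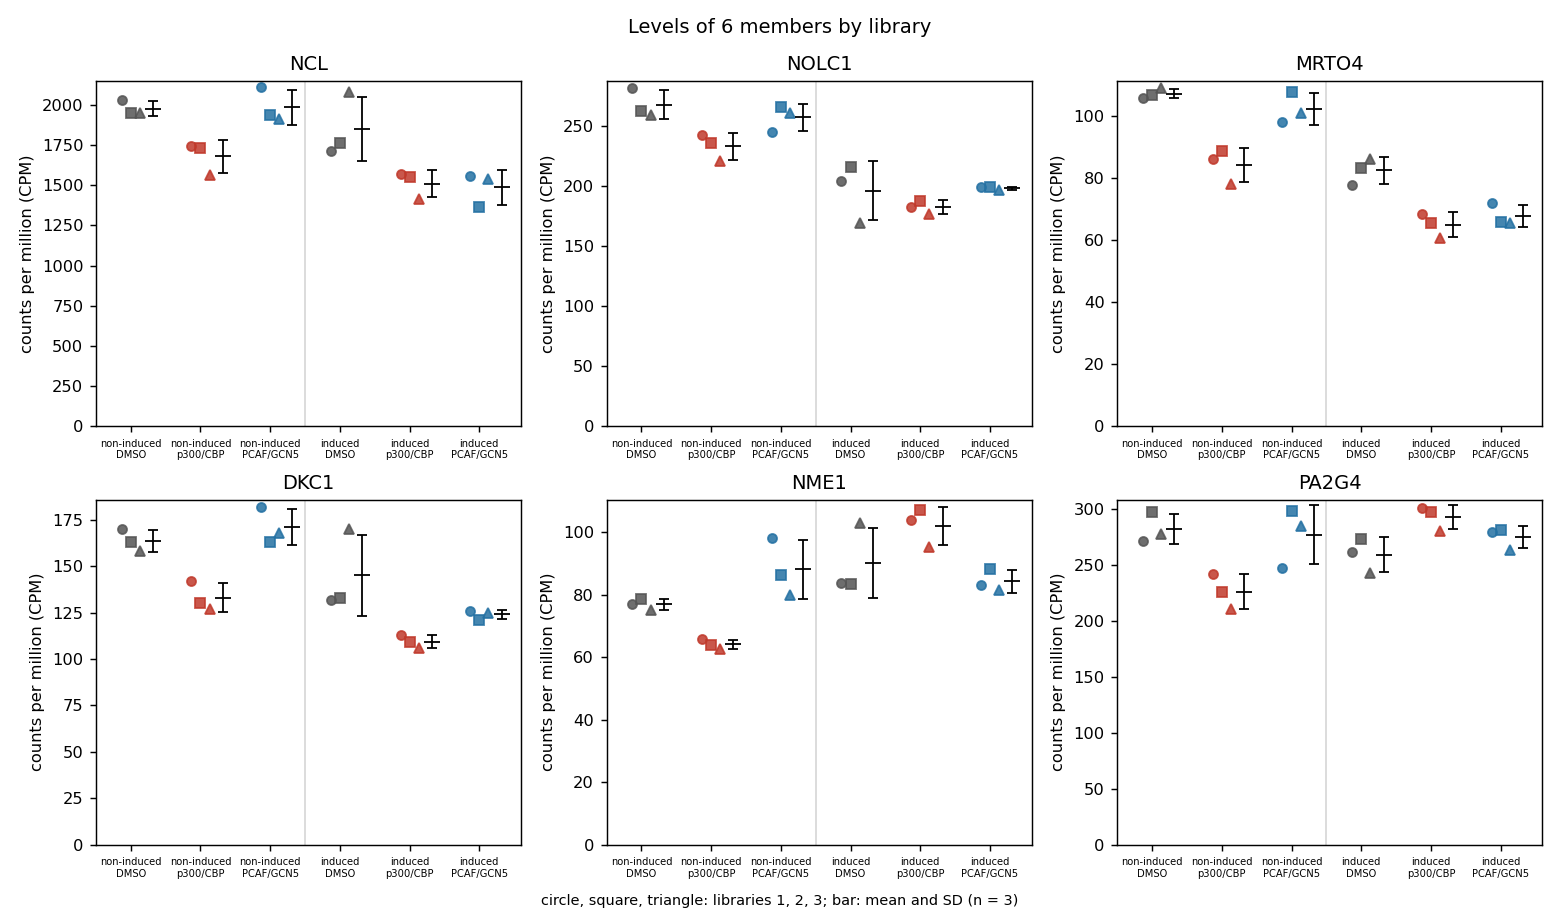
CPM of NCL, NOLC1, MRTO4, DKC1, NME1 and PA2G4 in each of 18 libraries, with the mean and SD of 3 per group. PA2G4 is at 211 to 242 with the p300/CBP compound in non-induced cells and at 281 to 301 in induced cells, and NME1 is at 62.8 to 65.7 and at 95.3 to 107.

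In the authors' deposited table for the p300/CBP compound in non-induced cells, 29 of 36 members with an adjusted p were lower and 0 higher, beside 9% of all genes lower. In the authors' deposited table for the same compound in induced cells, 20 of 37 were lower, beside 11.7% of all genes, and 1 was higher, PA2G4 at 0.16 (adjusted p = 0.0249). The share of all genes higher there was not counted, so this 1 has no background beside it. In the authors' deposited table for the PCAF/GCN5 compound in induced cells, 14 of 36 were lower, beside 7.15% of all genes, with RRS1 at -0.38 (adjusted p = 6.62e-05). In the authors' deposited table for that compound in non-induced cells, 0 of 32 were lower, beside 0.182%. MYC was at -0.26 with the p300/CBP compound in induced cells in the authors' deposited table (adjusted p = 0.00698), where the edgeR test above gave -0.25. The 2 induced tables give DMSO over the compound, and their signs were turned here.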

How the data were processed

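RNA of 18 H1299 libraries (6 groups of 3, 24 h) was prepared with a directional kit, per the labels. StringTie and DESeq2 were used, per the submitters' processing notes; their versions, the aligner, build, annotation and use of strand are not given in the sources used here. The 4 deposited tables hold raw counts per gene, a log2 fold change and p-values by the authors, per the file headers. In 1 table the line of ANK2 is broken, and this gene was left out; counts of the DMSO libraries shared by tables were equal in 6 of 6 columns. Start or end of 27 of the 37 members equal those of GENCODE v29, so that coordinates are on GRCh38.

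Counts were tested with the quasi-likelihood F test of edgeR 4.0.16 (R 4.3.3) on the groups compared, after filterByExpr and TMM scaling, with Benjamini-Hochberg adjustment over all genes tested, called below 0.05. SE is the log2 fold change over the square root of F. Of the 9 comparisons, 7 set 2 groups side by side and 2 test an interaction. Alternatives were RLE size factors, library totals only, DESeq2 1.42.0, no filter on low counts, 1 fit of all 6 groups, a replicate block and leaving out each library. The test was tested on simulated data from these counts: of genes changed 1.5-fold, 78.8% were recovered in the comparison of the p300/CBP compound in non-induced cells (14570 genes) and 54% in induced cells (14714 genes), where 5.99% and 8.33% of calls were false. A 1.5-fold change is larger than the members' median log2 differences in these comparisons (-0.22 and -0.19). Recovery of changes of the members' size was not simulated.

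The members and lists were chosen with earlier results of these data known. The members are all named, MYC by library, and by library also the 2 called members with the smallest p per direction and comparison, or the 2 smallest p where none was called. Other members given by library were chosen after their values were seen. Of other lists at most 2 called genes per direction and comparison are named. Replicate numbers come from the titles; deviations of same-numbered libraries from their group means correlated at -0.14 to 0.12, so the numbers were not taken as pairs. One further check of the induction is not reported here.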

Additional observations from a re-analysis of the deposited data

Results flagged for a closer look

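The response of PA2G4 to the p300/CBP compound differed between non-induced and induced cells by the test of the difference itself (0.52 on the log2 scale, adjusted p = 0.011, edgeR). All 3 compound libraries were below DMSO in non-induced cells and all 3 above it in induced cells. The difference was still called when each single library was left out in turn. No other test for single libraries that stand apart was run.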

How the results depend on the processing

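Of the values of single members in comparisons where the main test or an alternative called them, 1094 kept direction and side of the threshold under the alternatives, 136 lost the call, 134 gained it and 10 turned; the cause was not tested. A further 221 values of members in comparisons where they were never called were recomputed too, and 66 of these, with a log2 difference of at most 0.26 either way in the main test, changed sign under at least 1 alternative. The 10 are on induction in DMSO: ODC1 (-0.14 to 0.01), BOP1 (-0.22 to 0.12), FBL (-0.19 to 0.08) and PES1 (-0.18 to 0.04) when single libraries were left out, FBL with library totals only (0.01) and BOP1 with the replicate block (-0.02). Members called, in the main test and then as the range when single libraries were left out, were 9 and 3 to 27 on induction, 4 and 0 to 24 with the p300/CBP compound after induction, 27 and 11 to 32 without it, 1 and 0 to 3 between the compounds after induction, 2 and 0 to 5 without it, and 1 and 1 to 3 for the p300/CBP compound between the states. With DESeq2 there were 10 for the p300/CBP and 1 for the PCAF/GCN5 compound after induction, 10 between the compounds without it and 2 for the p300/CBP compound between the states. All genes called were then 1281 of 13576, 106 of 17754, 422 of 10242 and 276 of 15595, in this order. Without the filter on low counts the members called were 15, 5, 12 and 3, in the same order, and 2 for the PCAF/GCN5 compound between the states. Beside them stood 2106 of 30226, 541 of 30777, 594 of 30210, 416 of 33811 and 258 of 34413 genes. With all 6 groups in 1 fit there were 18 and 5 for the p300/CBP and PCAF/GCN5 compounds after induction, 8 for the p300/CBP compound without it and 0 between the compounds after induction, where library totals only gave 2. In that fit 2214, 352, 615 and 394 of all 16019 genes were called, in this order. With library totals only 641 of 14983 genes were called between the compounds after induction.

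The lowest and highest number of all genes called over the alternatives was 869 and 5001 on induction (2075 in the main test), 263 and 3234 with the p300/CBP compound after induction (898), 527 and 2384 without it (1478), 29 and 541 with the PCAF/GCN5 compound after induction (52), 0 and 48 without it (3), 236 and 1098 between the compounds after induction (617), 1 and 594 without it (165), and 123 and 432 (200) and 8 and 258 (11) for the 2 differences between the states.

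The fit with a replicate block gave 0 members for the p300/CBP compound after induction, 1 between the compounds without it, 6 on induction and 25 for the p300/CBP compound in non-induced cells. All genes called in it were 530 of 15019, 46 of 15131, 1560 of 15055 and 1311 of 14943, in this order. Same-numbered libraries share only a number, and 0 to 4 of 6 libraries correlated best with their own number in the other group. Low counts limit NOP2, with 5 to 43 per library, and 54.4% of its exon bases are shared with another gene on the same strand.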

Other observations

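POLR1A, the largest subunit of RNA polymerase I and not one of the 37 genes, rose with the p300/CBP compound in induced cells (0.48 ± 0.07, adjusted p = 0.00428, edgeR). It was higher there than with the PCAF/GCN5 compound (0.35 ± 0.06, adjusted p = 0.00155), and its response differed between the states (0.56 ± 0.10, adjusted p = 0.00505). The response of MXD4, the MAX-binding antagonist of MYC, differed between the states in the other direction (-0.48 ± 0.09, adjusted p = 0.0156). NOP56, left out by the rule, was at 240 ± 13.1 CPM in non-induced and 912 ± 29.7 in induced DMSO libraries (n = 3 each), and it fell with the p300/CBP compound in non-induced cells (-0.25 ± 0.05, adjusted p = 0.0069).

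Among all genes tested in non-induced cells with the p300/CBP compound that had a promoter window, the E-box was in 16.3% of the 783 called lower, 14.4% of the 396 called higher and 12.4% of the 9261 not called. Leaving out the members, it was in 116 of 760 genes called lower (15.3%).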
